A study of Homo sapiens with 9 samples.

Results

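DKK1 and 9 other genes of the Wnt pathway were followed in HepG2 cells, which are a long-used human line grown from a liver tumor, before and during glutamine (Gln) deprivation. The 10 genes are DKK1, NOTUM, AXIN2, NKD1, LGR5, RNF43, ZNRF3, TCF7, LEF1 and SP5, taken by symbol from a table of 22587 genes, in which each has 1 row. DKK1 was selected on its fall in these same libraries, so its values are given as a description without a test. The other 9 were chosen by their role in the pathway, with earlier results of these data known. RNA of cells in high-glucose DMEM with Gln added was compared with RNA of cells after 12 h or 24 h in Gln-free medium, with 3 libraries in each of the 3 groups and no genetic change in any of them. The deprivation began 24 h after seeding, and the time at which the cultures with Gln added were collected is not given in the sources used here. The per-sample labels list GlutaMAX, which is Gln in the form of a stable dipeptide, as the supplement of the cultures with Gln added, whereas the treatment protocol and the methods place it in the medium of the deprived cultures, so what the deprived cells received is not settled by the labels. Nothing states that the 3 libraries of a group came from separate cultures, so the p-values below measure only the spread between these libraries, which may be technical.

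Wnt ligands bind Frizzled receptors and the co-receptors LRP5 and LRP6, and this stops a cytoplasmic destruction complex from marking beta-catenin for degradation. Stable beta-catenin enters the nucleus, binds factors of the TCF/LEF family and turns on target genes. Many of these targets feed back on the pathway: DKK1 binds LRP5 and LRP6 and blocks them, NOTUM removes the lipid that Wnt ligands need, AXIN2 is a scaffold of the destruction complex, NKD1 binds Dishevelled, and RNF43 and ZNRF3 are ubiquitin ligases that remove Frizzled from the cell surface. LGR5 is a receptor of R-spondins, which clear RNF43 and ZNRF3. HepG2 is known to carry a CTNNB1 allele that lacks the stretch through which beta-catenin is marked for degradation, so the pathway is active in this line without a ligand. In liver, Wnt signalling is known for setting the gene expression of hepatocytes around the central vein.

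The RefSeq promoter table (GRCh38.p14), with 250 bases before and 50 after a start, held 5 of the 10 genes, DKK1, RNF43, TCF7, LEF1 and SP5. NOTUM, AXIN2, NKD1, LGR5 and ZNRF3 are named only. The windows were searched on both strands for 2 forms of the TCF/LEF motif, CTTTGAA and CTTTGAT, which do not overlap each other here. Other forms of this motif were not searched. Of all 35116 promoters in the table, 4.43% held CTTTGAA, 2.62% held CTTTGAT and 6.86% held either. DKK1 held 1 match, CTTTGAA with its first base at -95. SP5 held 3 matches, CTTTGAA on the opposite strand at -148 and -84 and CTTTGAT at -109. The windows of RNF43, TCF7 and LEF1 held no match. Those of TCF7 (134115363 to 134115662) and LEF1 (108166252 to 108166551) lie inside the span of the gene in the GENCODE v44 annotation. The starts at the outer ends of these genes were therefore not searched. None of the 5 windows held TGANTCA (AP-1) or TGATGNAA (ATF4 with C/EBP), which were found in 7.71% and 3.62% of all promoters. A match is a description of letters and not a site of binding. The 250 bases before the start of DKK1 (chr10:52314031-52314280, plus strand) and of SP5 (chr2:170715087-170715336, plus strand) are shown because they hold the matches. Capitals mark the matches, and positions count back from the annotated start.
DKK1: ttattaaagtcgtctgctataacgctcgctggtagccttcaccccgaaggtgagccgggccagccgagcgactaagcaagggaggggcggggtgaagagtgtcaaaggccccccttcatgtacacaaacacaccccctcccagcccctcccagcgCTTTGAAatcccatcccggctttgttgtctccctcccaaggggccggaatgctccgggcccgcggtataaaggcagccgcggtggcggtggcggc
SP5: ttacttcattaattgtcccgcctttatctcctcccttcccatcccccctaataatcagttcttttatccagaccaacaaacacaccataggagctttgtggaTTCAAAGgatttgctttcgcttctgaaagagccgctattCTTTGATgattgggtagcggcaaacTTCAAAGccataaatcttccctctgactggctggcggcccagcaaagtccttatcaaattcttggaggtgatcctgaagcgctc

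Between 29618630 and 36258193 fragments on genes stood behind each library, as recovered from the steps of the deposited values. All values are FPKM, fragments scaled to the length of the gene and to the depth of the library. Levels of different genes are thus compared per length, as far as the lengths used hold. Fold changes were taken on a scale of log2(FPKM + 0.1) for 11880 genes, those that averaged 0.5 FPKM or more, with limma (two-sided, Benjamini-Hochberg adjusted over all of them), and a gene was called at an adjusted p under 0.05. Of 10 liver markers 10 were expressed, with summed levels of 7563 to 7663 FPKM in the libraries with Gln added, 6627 to 6698 FPKM in those of 12 h and 6401 to 6734 FPKM in those of 24 h. The fibroblast markers COL1A1, COL1A2, COL3A1 and DCN and the endothelial marker CDH5 held at most 3 fragments in every library. LUM, KDR, PTPRC and CD3E have no row in the table. Summed fibroblast markers were 0.113 to 0.181, 0.317 to 0.518 and 0.608 to 0.780 FPKM in the 3 groups, carried by PDGFRB. Endothelial markers summed to at most 0.366 FPKM, and the 3 blood cell markers with a row to 769 to 789, 554 to 593 and 760 to 807 FPKM. That sum was nearly all LYZ, with means of 742, 539 and 767 FPKM, while CD68 averaged 22.9 to 36.1 FPKM and CD14 1.11 to 1.42 FPKM. The labels name HepG2 cells only, so LYZ is not read here as a sign of blood cells. In bulk RNA, fewer cells of a type and less RNA per cell cannot be told apart.

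DKK1, the secreted inhibitor that holds LRP5 and LRP6 away from Wnt, was one of the most abundant mRNAs of the cells with Gln added and stood far lower at both times of deprivation. It was at 724, 686 and 723 FPKM in the 3 libraries with Gln added. At 12 h it was at 186, 189 and 196 FPKM. At 24 h it was at 122, 143 and 144 FPKM. The 3 groups did not overlap, with at least 686 FPKM with Gln added against at most 196 FPKM in the 6 deprived libraries. The group means were 711 ± 21.5, 190 ± 4.88 and 136 ± 12.2 FPKM (SD, n = 3), which is 3.74-fold lower at 12 h and 5.22-fold lower at 24 h than with Gln added. On the log2 scale the differences were -1.90 at 12 h and -2.39 at 24 h, and 24 h stood 0.48 below 12 h (-0.48). These are the values that selected the gene, and no test is given for them in any contrast.

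The depth behind DKK1 was large. Between 43258 and 46625 fragments came from it in a library with Gln added, 9950 to 12713 after 12 h and 7898 to 9049 after 24 h. Its share of all fragments on genes was 0.124% to 0.131% in the libraries with Gln added, 0.0336% to 0.0353% in those of 12 h and 0.0221% to 0.0259% in those of 24 h. By mean FPKM, DKK1 ranked 59th of 22587 genes in the presence of Gln, 230th after 12 h and 345th after 24 h. Ordered by their fold change, it had the 13th largest fall of the 11880 genes at 12 h and the 4th at 24 h. Among the 547 genes over 100 FPKM with Gln added, it was 2nd at 12 h and 1st at 24 h. DKK1 (chromosome 10, 52314281 to 52318042, plus strand, GENCODE v44 on GRCh38) shares 10.2% of its exonic bases with PRKG1-AS1 on the opposite strand. Whether the counting used strand is not stated, but PRKG1-AS1 was at 0.344 to 1.20 FPKM over the 9 libraries, against at least 122 FPKM for DKK1.

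**Figure D1:**
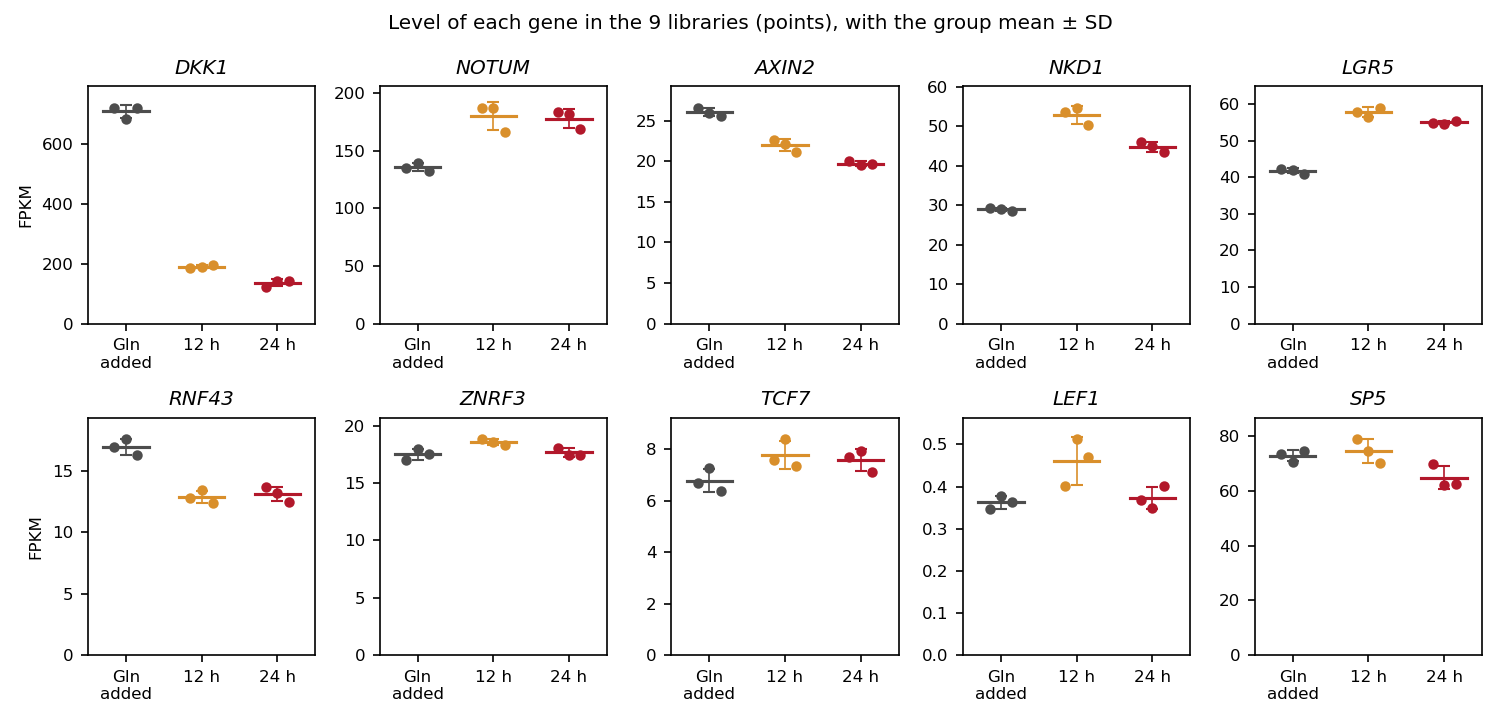
Each panel plots the FPKM of 1 gene in the 9 libraries as points, with the mean as a line and the SD as a bar (n = 3), for Gln added (grey), 12 h (orange) and 24 h (red) of Gln deprivation, each axis starting at 0. DKK1 stood at 711, 190 and 136 FPKM on average, while NOTUM, NKD1 and LGR5 were higher in all 6 deprived libraries and AXIN2 and RNF43 lower.

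The other secreted inhibitor, NOTUM, moved the opposite way. NOTUM, the carboxylesterase that strips the lipid from Wnt ligands, was at 135, 140 and 133 FPKM with Gln added, at 187, 188 and 167 FPKM at 12 h and at 184, 182 and 169 FPKM at 24 h. All 6 deprived libraries were above all 3 with Gln added, and the 2 deprived groups overlapped. It rose by 0.41 ± 0.05 (SE) on the log2 scale at 12 h (limma adjusted p = 6.03e-05) and by 0.39 ± 0.05 at 24 h (limma adjusted p = 6.62e-05). Between 24 h and 12 h the difference was -0.02 (95% interval -0.13 to 0.10, limma adjusted p = 0.841). The ratio of DKK1 to NOTUM in FPKM averaged 5.24 ± 0.29 in the presence of Gln, 1.06 ± 0.10 after 12 h and 0.768 ± 0.095 after 24 h (SD, n = 3). With Gln added DKK1 was thus the higher of the pair in every library, and at 24 h NOTUM was. NOTUM lies on the minus strand of chromosome 17, 81952507 to 81961840.

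The 2 cytoplasmic feedback genes also went in opposite directions. AXIN2, which helps to assemble the destruction complex, was at 26.6, 26.0 and 25.6 FPKM with Gln added, at 22.6, 22.1 and 21.1 FPKM at 12 h and at 20.0, 19.5 and 19.6 FPKM at 24 h. No 2 of its 3 groups overlapped. It fell at 12 h (-0.25 ± 0.04, limma adjusted p = 0.000266) and at 24 h (-0.40 ± 0.04, limma adjusted p = 5.45e-06), and was lower at 24 h than at 12 h (-0.16 ± 0.04, limma adjusted p = 0.0171). The last of these calls was lost without replicate 1 or 2 of 12 h or replicate 3 of 24 h (limma adjusted p = 0.0709, 0.0554 and 0.0539) and with only both deprived groups in the fit (limma adjusted p = 0.0505). AXIN2 (chromosome 17, 65528563 to 65561648, minus strand) shares 25.3% of its exonic bases with ENSG00000266076, a protein-coding model on the same strand that has no row in the table, so its level is uncertain to that extent.

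NKD1, a partner of Dishevelled that dampens the pathway, had the largest rise of the 8 genes tested. It was at 29.3, 29.0 and 28.6 FPKM with Gln added, at 53.5, 54.7 and 50.4 FPKM at 12 h and at 46.1, 44.9 and 43.5 FPKM at 24 h. The 3 groups did not overlap, with 12 h the highest and 24 h between the others. NKD1 rose by 0.87 ± 0.04 on the log2 scale at 12 h (limma adjusted p = 3.14e-08) and by 0.63 ± 0.04 at 24 h (limma adjusted p = 2.23e-07). It was lower at 24 h than at 12 h (-0.24 ± 0.04, limma adjusted p = 0.00235), in every setting tried. The ratio of NKD1 to AXIN2 in FPKM averaged 1.11 in the presence of Gln, 2.41 after 12 h and 2.27 after 24 h (means of 3 libraries). NKD1 lies on the plus strand of chromosome 16, 50548396 to 50649249.

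At the cell surface, the R-spondin receptor LGR5 rose, the related receptor LGR4 fell, and RNF43, 1 of the 2 Frizzled-removing ligases, fell. LGR5, also known as a marker of stem cells in gut and liver, was at 42.3, 42.1 and 41.0 FPKM with Gln added, at 58.0, 56.4 and 59.1 FPKM at 12 h and at 55.0, 54.7 and 55.5 FPKM at 24 h. All deprived libraries were above those with Gln added. LGR5 (chromosome 12, 71439798 to 71586310, plus strand) rose by 0.47 ± 0.03 on the log2 scale at 12 h (limma adjusted p = 6.37e-07) and by 0.40 ± 0.03 at 24 h (limma adjusted p = 1.52e-06). It stood -0.07 lower at 24 h than at 12 h, which did not pass the test (limma adjusted p = 0.146). LGR4, which is not among the 10 genes and is named after its values were seen, averaged 32.4 ± 0.94 FPKM in the presence of Gln, and fell to 21.7 ± 2.57 FPKM after 12 h (-0.58, limma adjusted p = 0.000605) and 23.6 ± 3.32 FPKM after 24 h (-0.47, limma adjusted p = 0.00221).

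RNF43, the ligase that ubiquitinates Frizzled receptors, was at 16.9, 17.6 and 16.3 FPKM with Gln added, at 12.8, 13.4 and 12.4 FPKM at 12 h and at 13.7, 13.2 and 12.5 FPKM at 24 h. Deprived libraries lay below all those with Gln added, and 12 h and 24 h overlapped. RNF43 fell by 0.39 ± 0.05 on the log2 scale at 12 h (limma adjusted p = 5.84e-05) and by 0.37 ± 0.05 at 24 h (limma adjusted p = 7.59e-05). RNF43 (chromosome 17, 58353676 to 58417595, minus strand) shares 68.4% of its exonic bases with ENSG00000285897, a protein-coding model on the same strand that has no row, so its level is uncertain.

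ZNRF3, the ligase closest to RNF43 in sequence and role, was not called at either time. It was at 17.0, 18.0 and 17.5 FPKM with Gln added, at 18.8, 18.6 and 18.3 FPKM at 12 h and at 18.1, 17.4 and 17.5 FPKM at 24 h. The 12 h libraries were all slightly above those with Gln added, and the 24 h libraries overlapped with them. The log2 difference was 0.08 at 12 h (95% interval 0.00 to 0.17, limma adjusted p = 0.0769) and 0.01 at 24 h (-0.07 to 0.10, limma adjusted p = 0.789), and neither passed the test. With FPKM rescaled to the same total, the 12 h difference of ZNRF3 passed (0.12, limma adjusted p = 0.0165). The ratio of LGR5 to RNF43 in FPKM averaged 2.47 in the presence of Gln, 4.50 after 12 h and 4.20 after 24 h. ZNRF3 lies on chromosome 22, 28883572 to 29057488, plus strand.

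The 2 genes for TCF/LEF factors among the 10 were the least abundant. TCF7, a DNA-binding partner of beta-catenin, was at 6.69, 7.25 and 6.36 FPKM with Gln added, at 7.56, 8.38 and 7.35 FPKM at 12 h and at 7.68, 7.93 and 7.11 FPKM at 24 h. Its 12 h libraries were above those with Gln added, while 24 h overlapped with them. It shares 2.08% of its exonic bases with SKP1 on the opposite strand, which was at 14.4 to 16.6 FPKM. TCF7 (chromosome 5, 134114681 to 134151865, plus strand) rose at 12 h (0.20 ± 0.07, limma adjusted p = 0.0312), and the 24 h difference of 0.16 ± 0.07 did not pass (limma adjusted p = 0.0627). The 12 h call was lost without replicate 1 or 3 with Gln added or replicate 2 of 12 h (limma adjusted p = 0.0789, 0.117 and 0.123), and the 24 h difference passed without replicate 2 with Gln added, replicate 2 of 12 h or replicate 3 of 24 h (limma adjusted p = 0.0312, 0.0487 and 0.0383).

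LEF1, another DNA-binding partner of beta-catenin, was near the limit of what the depth shows, with 43 to 69 fragments per library. It was at 0.347, 0.378 and 0.364 FPKM with Gln added, at 0.400, 0.513 and 0.471 FPKM at 12 h and at 0.369, 0.348 and 0.402 FPKM at 24 h. The 12 h libraries lay above those with Gln added, and 24 h overlapped with both. LEF1 (chromosome 4, 108047545 to 108168956, minus strand) was below the level needed for the fit. Two-sided exact permutation tests gave p = 0.1 at 12 h and p = 0.6 at 24 h against Gln added, and 0.1 is the smallest p that 3 libraries against 3 allow.

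SP5, a zinc finger factor that is a direct target of beta-catenin and represses other targets, was the third most abundant of the 10. It was at 73.7, 70.6 and 74.6 FPKM with Gln added, at 79.0, 74.8 and 70.2 FPKM at 12 h and at 69.8, 62.3 and 62.6 FPKM at 24 h. The 12 h libraries lay on both sides of those with Gln added, and the 24 h libraries lay below them. The difference at 12 h was 0.03 (95% interval -0.09 to 0.15, limma adjusted p = 0.631). SP5 (chromosome 2, 170715337 to 170718078, plus strand) fell at 24 h (-0.17 ± 0.06, limma adjusted p = 0.0188) and was lower at 24 h than at 12 h (-0.20 ± 0.06, limma adjusted p = 0.0260). The first of these calls was lost without replicate 1 or 3 with Gln added (limma adjusted p = 0.0556 and 0.0640) or without replicate 2 or 3 of 24 h (limma adjusted p = 0.0625 and 0.0697), and once FPKM were brought to 1 common total (limma adjusted p = 0.0573). The second was lost without replicate 1 or 2 of 12 h (limma adjusted p = 0.0973 and 0.0718), without replicate 2 or 3 of 24 h (limma adjusted p = 0.0776 and 0.0925) and in 3 other settings. The mean of SP5 was 11.0% lower at 24 h than with Gln added. Whether the matches in the promoters bear on the changes of SP5 or DKK1 was not tested.

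**Figure D2:**
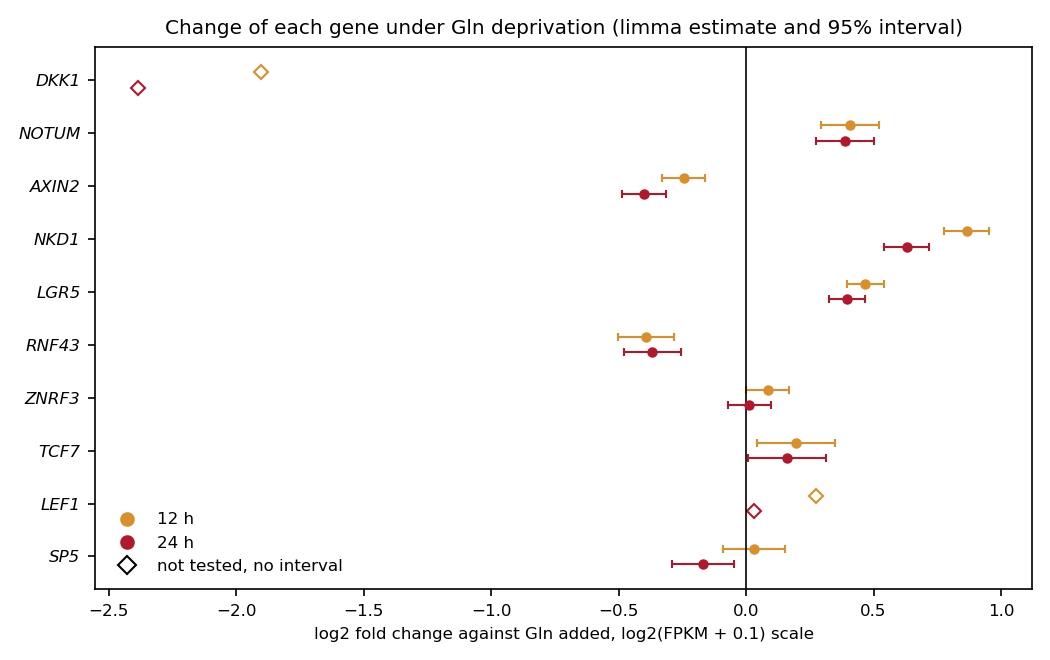
The horizontal axis gives the log2 fold change against Gln added on the log2(FPKM + 0.1) scale for each of the 10 genes at 12 h (orange) and 24 h (red). Circles are limma estimates with 95% intervals, and open diamonds (DKK1 and LEF1) were not tested, with DKK1 at -1.90 and -2.39 far to the left of the other genes, which lie between -0.40 and 0.87.

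Counted together, 6 of the 8 genes tested were called at 12 h, 4 higher (NOTUM, NKD1, LGR5, TCF7) and 2 lower (AXIN2, RNF43). Of all 11880 genes, 60.2% were called at 12 h, 29.1% higher and 31.0% lower, so that a call is common in this comparison. At 24 h again 6 of the 8 were called, 3 higher (NOTUM, NKD1, LGR5) and 3 lower (AXIN2, RNF43, SP5), against 64.7% of all genes, 33.0% higher and 31.7% lower. Between 24 h and 12 h, 3 of the 8 were called, all lower at 24 h (AXIN2, NKD1, SP5), against 20.1% of all genes, 9.57% higher and 10.5% lower. Only 1 of these 3 calls, that of NKD1, was left with just both deprived groups in the fit, and likewise without replicate 1 or 2 of 12 h or replicate 3 of 24 h. The median log2 change of the 8 genes was 0.14 at 12 h, 0.09 at 24 h and -0.07 between the times, beside -0.02, 0.01 and 0.02 over all genes. Since the 8 were chosen with results known, nothing is read from these counts.

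Groups without overlap were also common. The share of all genes whose libraries did not overlap was 67.2% at 12 h against Gln added, 69.9% at 24 h against Gln added and 34.4% between the times. At 12 h all of the 10 genes but SP5 were free of overlap with Gln added, and at 24 h all but ZNRF3, TCF7 and LEF1. DKK1 was selected on its fall, and LEF1 is not among the 11880 genes behind these shares. Nothing is read from these counts either.

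The order of the 10 levels by FPKM changed at the top. It rests on the gene lengths behind the FPKM, which differ from the exonic lengths in GENCODE v44. These were 1805 against 2221 bases for DKK1, 2223 against 2913 for NOTUM, 3200 against 2074 for SP5 and 14537 against 10093 for TCF7. With other lengths, neighbours in the order could change places, and their ranges could overlap or part, those of DKK1 and NOTUM among them. With Gln added the order by mean FPKM was DKK1, NOTUM, SP5, LGR5, NKD1, AXIN2, ZNRF3, RNF43, TCF7 and LEF1, and of neighbours in it only ZNRF3 and RNF43 overlapped in their ranges. At 12 h the order was the same, with DKK1 and NOTUM now overlapping and ZNRF3 and RNF43 apart. At 24 h NOTUM stood above DKK1 with no overlap, and the order of the others was unchanged. DKK1 made up 67.2% ± 0.87 of the summed FPKM of the 10 genes in the presence of Gln, 30.8% ± 1.49 after 12 h and 25.4% ± 2.27 after 24 h (SD, n = 3). The other 9 genes summed to 347 ± 3.86, 427 ± 18.6 and 401 ± 13.5 FPKM, so the smaller share of DKK1 came with a higher sum of the rest.

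The rest of the pathway was followed through 6 lists of genes by role, with 130 genes in all, of which 118 have a row and 64 passed the filter. Of the 64, 36 rose and 12 fell at 12 h, and 38 rose and 12 fell at 24 h. Between the times 1 was higher and 9 were lower at 24 h. The share called was 75% at 12 h, 78.1% at 24 h and 15.6% between the times, beside 60.2%, 64.7% and 20.1% of all genes. The median log2 change was 0.24 at 12 h, 0.21 at 24 h and 0.02 between the times. These values are described beside those over all genes given above, with no test of the lists.

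Of the 18 genes for ligands and their secretion with a row, 16 encode WNT ligands, and 1 of these, WNT3, was expressed above the filter. WNT3, a ligand of the beta-catenin pathway, rose from 5.57 FPKM to 8.66 FPKM at 12 h and 8.47 FPKM at 24 h (log2 change 0.63 and 0.60, limma adjusted p = 7.85e-06 and 8.65e-06). The other gene of the list above the filter, PORCN, the acyltransferase that puts the lipid on Wnt ligands, had log2 changes of -0.54 at 12 h (limma adjusted p = 0.0187) and -0.27 at 24 h (limma adjusted p = 0.189), and is named after its values were seen because it completes the list.

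Receptors moved in both directions, with 4 of 9 higher and 2 lower at 12 h and 4 higher and 3 lower at 24 h. In total 66.7% of them were called at 12 h and 77.8% at 24 h, beside 60.2% and 64.7% of all genes. FZD4 fell from 26.9 to 19.2 and 16.3 FPKM (-0.49 and -0.72, limma adjusted p = 1.23e-06 and 4.01e-08). FZD5 rose from 19.7 to 28.5 and 30.2 FPKM (0.53 and 0.62, limma adjusted p = 4.33e-07 and 9.60e-08). FZD6 rose from 6.36 to 7.96 and 9.23 FPKM (0.32 and 0.52, limma adjusted p = 0.00818 and 0.000291). All 3 are Frizzled receptors, the class that RNF43 and ZNRF3 remove. FZD4 shares 18.9% of its exonic bases with PRSS23 on the opposite strand, which was at most 0.124 FPKM.

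Among other secreted and surface inhibitors, 2 of the 3 tested, DKK4 and SFRP4, fell at both times, and the other, KREMEN1, was not called at either. Over all genes, 31.0% were called lower at 12 h and 31.7% at 24 h. DKK4, a relative of DKK1 that also binds the LRP co-receptors, fell from 3.31 FPKM to 2.06 at 12 h and 2.14 at 24 h (-0.66 and -0.59, limma adjusted p = 0.00333 and 0.00537). SFRP4, which binds Wnt ligands, and KREMEN1, a DKK receptor, are named after their values were seen because they complete the list. SFRP4 averaged 0.717 FPKM with Gln added, 0.453 FPKM at 12 h and 0.423 FPKM at 24 h, with 31 to 87 fragments per library. It passed the filter of 0.5 FPKM only through the libraries with Gln added, so nothing is read from its fall or from this count of inhibitors.

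Of the cytoplasmic genes, 15 of 20 rose and 2 fell at 12 h, and 16 rose and 2 fell at 24 h, beside 29.1% of all genes higher and 31.0% lower at 12 h and 33.0% and 31.7% at 24 h. CTNNB1, which encodes beta-catenin itself, fell from 102 to 83.9 and 80.1 FPKM (-0.28 and -0.35, limma adjusted p = 0.000176 and 2.83e-05). AXIN1, the scaffold related to AXIN2, rose from 10.4 to 16.9 and 15.7 FPKM (0.69 and 0.59, limma adjusted p = 3.26e-07 and 7.35e-07), whereas AXIN2 fell. CSNK1A1, the kinase that primes beta-catenin, rose from 32.5 to 53.3 and 52.4 FPKM (0.71 and 0.69, limma adjusted p = 2.36e-07 and 2.07e-07), though 49.3% of its exonic bases are shared with a same-strand non-coding model. GSK3B, the kinase that follows, rose by 0.18 and 0.20 (limma adjusted p = 0.0135 and 0.00666). APC, another scaffold, was at 3.23, 3.09 and 3.31 FPKM, with log2 changes of -0.06 (95% interval -0.24 to 0.12) and 0.04 (-0.14 to 0.22) that did not pass. DVL3, a Dishevelled protein that relays the signal from Frizzled, rose from 19.7 to 29.3 and 29.1 FPKM (0.57 and 0.56, limma adjusted p = 2.58e-06 and 1.98e-06).

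Of the nuclear partners, 10 of 16 rose and 1 fell at 12 h, and 11 rose and 1 fell at 24 h, to be read beside the same shares of all genes, 29.1% and 31.0% at 12 h and 33.0% and 31.7% at 24 h. CREBBP, a histone acetyltransferase that beta-catenin recruits, rose from 7.75 to 15.6 and 15.4 FPKM (1.00 and 0.98, limma adjusted p = 7.46e-08 and 5.00e-08). TLE3, a corepressor of TCF/LEF factors, rose from 2.43 to 4.66 and 5.41 FPKM (0.91 and 1.12, limma adjusted p = 8.74e-07 and 1.21e-07). TCF7L2, the TCF factor best known in adult liver and gut, rose from 5.26 to 7.13 and 8.40 FPKM (0.43 and 0.66, limma adjusted p = 0.000721 and 2.78e-05), beside 6.77, 7.76 and 7.57 FPKM for TCF7.

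Other target genes moved in both directions, with 6 of 14 higher and 4 lower at both times. The share called was 71.4% at each time, beside 60.2% of all genes at 12 h and 64.7% at 24 h. MYC, a growth regulator, rose from 30.6 to 64.6 and 54.1 FPKM (1.08 and 0.82, limma adjusted p = 8.48e-08 and 4.17e-07). SOX9, a factor of bile duct and progenitor cells, rose from 48.7 to 79.7 and 82.4 FPKM (0.71 and 0.75, limma adjusted p = 8.59e-07 and 3.69e-07). CCND1, the G1 cyclin D1, fell from 84.2 to 71.1 and 62.1 FPKM (-0.24 and -0.44, limma adjusted p = 4.42e-05 and 3.81e-07), and 10.4% of its exonic bases are shared with LTO1 on the opposite strand. SLC13A3, a dicarboxylate transporter, fell from 15.6 to 12.0 and 9.29 FPKM (-0.37 and -0.74, limma adjusted p = 5.93e-05 and 2.28e-07). GLUL, the Gln synthetase that marks hepatocytes around the central vein, was at 33.0, 34.4 and 33.8 FPKM, with log2 changes of 0.06 (95% interval -0.02 to 0.14, limma adjusted p = 0.186) and 0.03 (-0.05 to 0.11, limma adjusted p = 0.429).

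**Figure D3:**
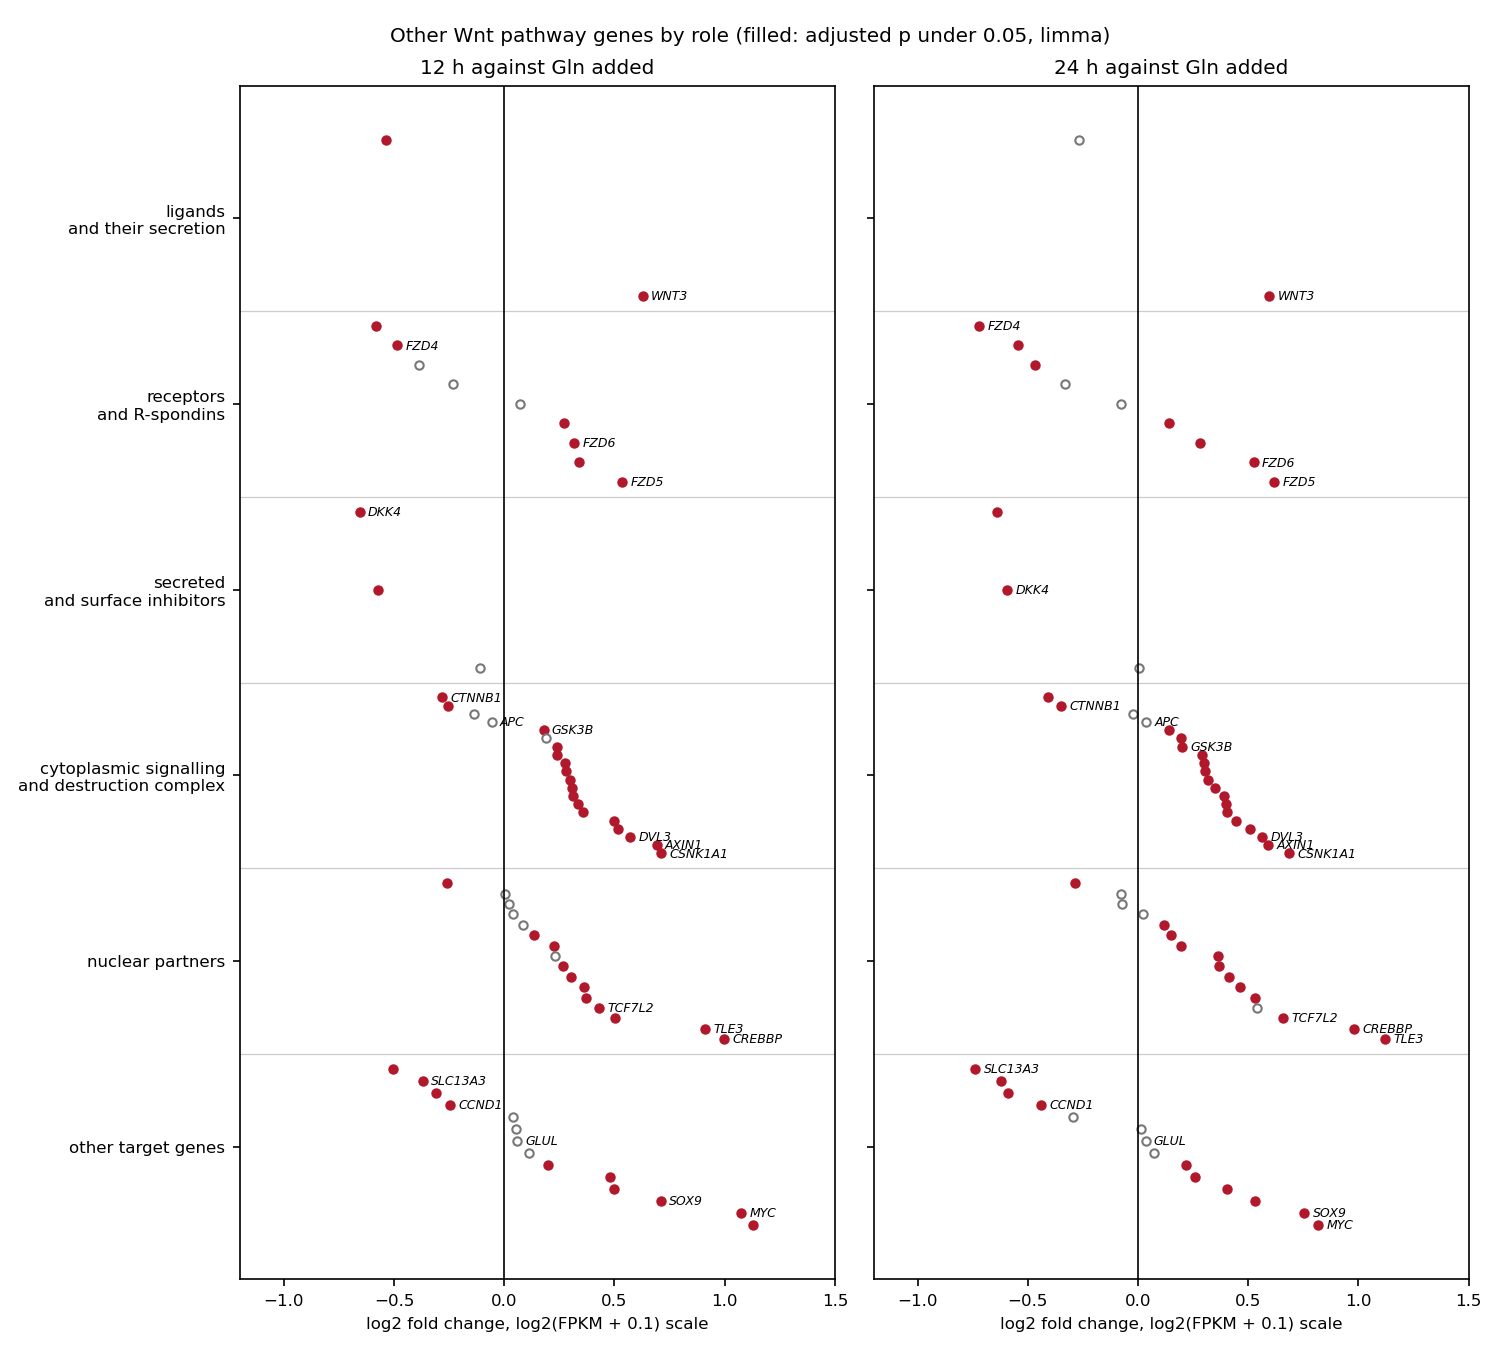
Each point is 1 of the 64 other Wnt pathway genes tested, placed by its log2 fold change on the log2(FPKM + 0.1) scale at 12 h (left) and 24 h (right) against Gln added and grouped by role, with height inside a band only spreading the points. Filled points were called by limma, and most of the 20 cytoplasmic and 16 nuclear genes lie to the right of 0, while receptors and other targets lie on both sides.

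The genes whose profile over the 9 libraries was most like that of DKK1 were found by the root mean square difference of log2(FPKM + 0.1), each gene centred on its own mean, over the 10868 genes that averaged 1 FPKM or more. No correlation is given, since the 9 libraries fall into 3 separate groups. Of the 5 nearest genes 4 are given here, and none of these 4 was in the Wnt lists. DHCR7, which makes cholesterol from its last precursor, had a difference of 0.203 and went from 51.5 ± 1.56 to 13.8 ± 0.62 and 12.7 ± 0.73 FPKM (SD, n = 3). ACAT2, the cytosolic acetoacetyl-CoA thiolase, had a difference of 0.215 and went from 165 ± 1.93 to 51.1 ± 0.88 and 43.5 ± 2.44 FPKM. ACAT2 shares 22.2% of its exonic bases with genes on the opposite strand. TCP1, at 190 to 235 FPKM, covers 17.2% of the exonic bases, and SOD2, at 17.1 to 30.4 FPKM, covers 5.04%. EPO, the hormone erythropoietin, had a difference of 0.231 and went from 5.26 ± 0.48 to 1.72 ± 0.19 and 0.878 ± 0.158 FPKM. LSS, lanosterol synthase, had a difference of 0.234 and went from 49.9 ± 1.80 to 10.9 ± 0.42 and 11.1 ± 0.46 FPKM. These genes were chosen on the measure that describes them, and no test is given.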

How the data were processed

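RNA-seq of HepG2 cells was analysed for 3 groups of 3 libraries, grouped by their labels. The deposited values are FPKM for each gene in each library, which the authors made from reads aligned to GRCh38. The submitters' processing notes name HTSeq and R 3.2.0, and the annotation and the strand setting of the counting are not given in the sources used here. The labels name another library kit than the methods, which describe strand-specific libraries. The labels placed every column of values (0 were left without a library).

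FPKM are not counts, so limma 3.58.1 in R 4.3.3 (lmFit, eBayes with a trend) was run on log2(FPKM + 0.1) for the 11880 genes that averaged 0.5 FPKM or more, with all 9 libraries in 1 fit. This scale understates changes of low genes. Whole fragments were recovered from the steps of the FPKM (100% of 22587 genes came out whole within 0.004 fragments), and limma's voom was run on them as an alternative. In data simulated from known fragments, the fragments of 97.5% of genes were recovered. The test was also run on simulated data for 24 h against Gln added. Of 100 genes changed by 1 on the log2 scale 99 were called, of 99 changed by 0.5 92 were, and 9 unchanged genes were called. The simulation gave all genes the same added spread and changed few of them, unlike these data. It therefore does not give the error of the calls here.

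The 10 genes and the lists were chosen with earlier results of these data known. The text names all 10, up to 3 genes of each role list with the largest change at 24 h among those called that averaged 1 FPKM or more, CTNNB1, TCF7L2, AXIN1, APC, GSK3B, CCND1 and GLUL with any result, and the 5 genes most like DKK1, of which 1 is not reported here. Two-sided exact permutation tests are given for LEF1 only, which was below the filter of the fit. Ratios, shares and sums of FPKM were not tested. Alternatives were another pseudocount, filter, scaling, variance model or set of groups in the fit, voom, the replicate number as a block and each library left out. Replicate pairs all differed by more than sampling noise. Positions come from GENCODE v44. Plots were made in Python 3.11.15 with matplotlib 3.10.9.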

Additional observations from a re-analysis of the deposited data

Results flagged for a closer look

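Of the feedback genes tested and the other pathway genes named above, 8 changed against Gln added to a different extent at 24 h and 12 h. The test of that difference was limma, Benjamini-Hochberg adjusted over 11880 genes, of which 20.1% were called. Both changes share the libraries with Gln added, so the difference is that between the 2 deprived groups. In the role lists 1 gene was called higher and 9 lower between the times, and those not named above are left out here. Among the feedback genes, NKD1 differed by -0.24 on the log2 scale (24 h minus 12 h, adjusted p = 0.00235), AXIN2 by -0.16 (adjusted p = 0.0171) and SP5 by -0.20 (adjusted p = 0.0260). Of the other named pathway genes, SLC13A3 differed by -0.37 (adjusted p = 0.000408), MYC by -0.26 (adjusted p = 0.00932), FZD4 by -0.24 (adjusted p = 0.00139) and CCND1 by -0.19 (adjusted p = 0.00134). TLE3 was higher at 24 h by 0.21 (adjusted p = 0.0460), a call that was lost in 10 settings, among them without replicate 1 with Gln added and without each of the replicates of 12 h and 24 h (adjusted p from 0.0623 to 0.141). NKD1 and MYC were nearer to their level with Gln added at 24 h than at 12 h, while AXIN2, SLC13A3, FZD4, CCND1 and TLE3 were farther from it.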

How the results depend on the processing

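The changes of NOTUM, AXIN2, NKD1, LGR5 and RNF43 against Gln added kept direction and call at both times in every setting tried, and so did that of NKD1 between the times. The differences of 24 h against 12 h moved most. The number of the 8 genes called there was 3, but 1 with only the 2 groups compared in the fit, and 1 to 3 with each library left out. For differences that were not called, leaving out 1 library turned the sign, and the log2 differences then ranged from -0.0092 to 0.076 for SP5 at 12 h, from -0.0073 to 0.031 for ZNRF3 at 24 h, from -0.034 to 0.098 for APC at 24 h and, between the times, from -0.074 to 0.021 for NOTUM, from -0.0036 to 0.060 for RNF43 and from -0.073 to 0.022 for TCF7. TCF7 at 12 h lost its call with no filter (limma adjusted p = 0.0650), and at 24 h gained one with FPKM rescaled to the same total and with voom (limma adjusted p = 0.0222 and 0.0264). GLUL at 12 h passed with FPKM rescaled to the same total (limma adjusted p = 0.0448). SP5 between the times was not called with no filter, with only 2 groups or with no trend (limma adjusted p = 0.0658, 0.0602 and 0.0566). The causes were not tested. No scaling moved the median of all genes by over 0.1, but of the genes called between the times, 47.7% were higher, 39.7% with median-ratio scaling and 54.3% with a rescaled total. Of the 9 pairs of same-numbered replicates, 2, both of 24 h with 12 h, correlated over 0.1 in their deviations (0.304 and 0.292, the third pair -0.160). Between these groups, libraries of different numbers reached 0.358 (replicate 2 of 24 h with replicate 3 of 12 h) and -0.508 (replicate 1 of 24 h with replicate 3 of 12 h). In no comparison did every library correlate best with its own number, so the numbers were not taken as pairs. With the replicate block, 7341, 7802 and 2586 genes were called at 12 h, at 24 h and between the times, against 7147, 7686 and 2386 without it, and of the 8 genes only TCF7 at 24 h changed its call (limma adjusted p = 0.0112). LEF1, with 43 to 69 fragments, is limited by depth.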
